A study of Mus musculus with 40 samples.

Results

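The regions described here are stretches of the mouse genome that carried the histone mark H3K27ac in sorted blood stem and progenitor cells of every genotype studied except Runx1-het. The peaks of 6 pooled H3K27ac peak lists were merged wherever they shared 1 bp on chromosomes 1 to 19, which gave 70692 regions. Members were selected on the presence or absence of H3K27ac peaks. A region was kept if peaks of the Flt3-ITD/Runx1-het, Flt3-ITD, NUP98-HOXD13, Flt3-ITD/NUP98-HOXD13 and wild-type lists overlapped it and no peak of the Runx1-het list did. This left 1079 regions, 1.53% of all merged regions and 7.37% of the 14632 regions that the 5 other lists held. The absence of a Runx1-het peak is therefore how the regions were chosen and not a result.

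Cells were haematopoietic stem and progenitor cells (HSCs and HPCs) sorted from mice at postnatal day 21, and all genotypes shared that age. H3K27ac and H3K4me1 were mapped by ChIPmentation, a chromatin immunoprecipitation in which the transposase Tn5 inserts sequencing adapters into the captured chromatin. The source names of the Runx1-het samples join Runxf with Vav, which is taken here to mean a floxed Runx1 allele in mice with a transgene driven by Vav in blood cells. The labels do not spell out these alleles further. Flt3-ITD/Runx1-het adds to that genotype the Flt3-ITD allele, an internal tandem duplication that makes the receptor kinase FLT3 active without its ligand. Flt3-ITD alone, NUP98-HOXD13 (a leukaemia fusion joining the nuclear pore protein NUP98 to the homeodomain factor HOXD13), the combination Flt3-ITD/NUP98-HOXD13, and wild type were the other genotypes. Each H3K27ac list was pooled over 3 samples, or over 4 for NUP98-HOXD13 and Flt3-ITD/NUP98-HOXD13, and each H3K4me1 list over 3, or over 4 for Flt3-ITD/NUP98-HOXD13. Nothing in the labels says whether these came from separate animals. With 1 pooled list per genotype there is no replicate check and no test of genotypes, and the 95% Wilson intervals given in brackets cover counting error alone.

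H3K27ac marks active promoters and enhancers, and H3K4me1 marks enhancers whether or not they are active, together with the flanks of promoters. RUNX1 is a DNA-binding transcription factor needed for the emergence of blood stem cells and, in the adult, for megakaryocyte and lymphoid maturation, and it often shares enhancers with ETS and GATA factors. Loss of 1 copy of RUNX1 in people causes a familial platelet disorder with a tendency to myeloid leukaemia. Since the cells were measured in bulk, fewer cells of a type and less mark per cell cannot be told apart.

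To show what the regions look like, the 250 bases before the start site are given for 6 genes whose promoter was among them. Those of Ppm1f (a protein phosphatase gene), Chsy1 (a chondroitin sulfate synthase gene) and Ndufb8 (a gene for a subunit of mitochondrial complex I) are shown because the Runx1-het lists lacked both marks there. Hif1a (the oxygen-regulated transcription factor) is shown because none of the regions assigned to it had a Runx1-het H3K27ac peak. Nfkbia (the NF-kappa-B inhibitor I-kappa-B alpha) and Noct (nocturnin, a circadian phosphatase) are shown because their regions were among the most enriched. Positions are in GRCm38.p6, sequences are from RefSeq and read 5′ to 3′ on the strand of the gene. They are Ppm1f at chr16:16896219-16896468, plus strand; Chsy1 at chr7:66109242-66109491, plus strand; Ndufb8 at chr19:44555443-44555692, minus strand; Hif1a at chr12:73907617-73907866, plus strand; Nfkbia at chr12:55492648-55492897, minus strand; and Noct at chr3:51224197-51224446, plus strand. Capitals mark the RUNX core TGTGGT or its variant TGCGGT and the ETS core GGAAGT on either strand.
Ppm1f: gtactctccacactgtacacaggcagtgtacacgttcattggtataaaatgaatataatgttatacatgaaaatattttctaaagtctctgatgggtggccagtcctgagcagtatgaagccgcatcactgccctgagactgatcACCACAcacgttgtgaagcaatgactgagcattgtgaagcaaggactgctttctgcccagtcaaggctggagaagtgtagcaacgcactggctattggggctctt
Chsy1: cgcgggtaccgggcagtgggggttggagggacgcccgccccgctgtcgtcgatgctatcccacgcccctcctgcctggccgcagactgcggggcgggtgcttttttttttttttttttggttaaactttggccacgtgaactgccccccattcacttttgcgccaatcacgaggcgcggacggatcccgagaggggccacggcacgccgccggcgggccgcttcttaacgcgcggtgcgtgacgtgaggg
Ndufb8: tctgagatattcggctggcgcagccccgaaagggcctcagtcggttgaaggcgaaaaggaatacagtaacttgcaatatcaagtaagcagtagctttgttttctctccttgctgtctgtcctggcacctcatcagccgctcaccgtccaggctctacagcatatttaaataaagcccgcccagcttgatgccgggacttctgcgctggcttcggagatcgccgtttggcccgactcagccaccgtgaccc
Hif1a: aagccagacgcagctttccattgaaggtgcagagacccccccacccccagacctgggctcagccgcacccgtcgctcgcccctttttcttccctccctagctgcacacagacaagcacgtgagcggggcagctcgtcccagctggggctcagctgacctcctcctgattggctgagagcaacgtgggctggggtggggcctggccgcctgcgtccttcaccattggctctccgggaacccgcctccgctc
Nfkbia: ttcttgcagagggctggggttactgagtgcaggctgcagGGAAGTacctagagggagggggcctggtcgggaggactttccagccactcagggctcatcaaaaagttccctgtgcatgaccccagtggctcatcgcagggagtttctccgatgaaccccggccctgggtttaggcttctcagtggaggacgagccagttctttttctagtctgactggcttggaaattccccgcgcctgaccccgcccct
Noct: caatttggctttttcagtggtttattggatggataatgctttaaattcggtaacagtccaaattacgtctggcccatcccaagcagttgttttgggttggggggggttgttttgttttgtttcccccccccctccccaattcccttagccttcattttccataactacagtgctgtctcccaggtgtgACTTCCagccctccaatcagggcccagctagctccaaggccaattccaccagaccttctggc
Of these 6 stretches, that of Ppm1f held the RUNX core, on the opposite strand, and those of Nfkbia and Noct held the ETS core.

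The Runx1-het H3K27ac list was the shortest, with 31978 peaks, against 33935 to 43363 in the 5 other lists. Its H3K4me1 list was also the shortest, with 72682 peaks, against 73506 in wild type and 94580 to 117039 in the 4 other lists. A missing peak is one that did not pass the authors' threshold, which can follow from list length, and the read depth of the lists is unknown. On chromosome Y, which holds none of the regions, the Runx1-het and Flt3-ITD/Runx1-het lists had 5 H3K27ac peaks each and the 4 other lists 0 or 1, so the genotypes were not alike in sex-linked signal. A Runx1 promoter peak stood in all 6 lists, with a highest fold enrichment of 21.6 in Runx1-het, 14.7 in Flt3-ITD/Runx1-het, 17.7 in Flt3-ITD, 12 in NUP98-HOXD13, 19.7 in Flt3-ITD/NUP98-HOXD13 and 7.23 in wild type. Such a peak does not check the loss of 1 gene copy.

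The members were regions of modest H3K27ac in the lists that held them. Fold enrichment, given by the authors for each peak over its control, is used to rank peaks within a list. The median over the members was 4.89 in Flt3-ITD/Runx1-het, 4.53 in Flt3-ITD, 4.38 in NUP98-HOXD13, 4.83 in Flt3-ITD/NUP98-HOXD13 and 4.34 in wild type. The 13553 regions in all 6 lists had medians of 8.51 in Flt3-ITD/Runx1-het, 8.51 in Flt3-ITD, 7.66 in NUP98-HOXD13, 9.13 in Flt3-ITD/NUP98-HOXD13 and 6.98 in wild type. As a percentile of all peaks of its list, the median member stood at 59.7 in Flt3-ITD/Runx1-het, 51.3 in Flt3-ITD, 53.3 in NUP98-HOXD13, 54.7 in Flt3-ITD/NUP98-HOXD13 and 48.2 in wild type. The members thus sat near the middle of each list, while the medians of the regions in all 6 lists lay between the percentiles 79.1 and 83.1. Members were also narrower than the regions in all 6 lists, with a median width of 1391 bp against 2429 bp. The sets missing only from another list had medians between 1300 bp and 1501 bp, and all merged regions had 517 bp.

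**Figure D1:**
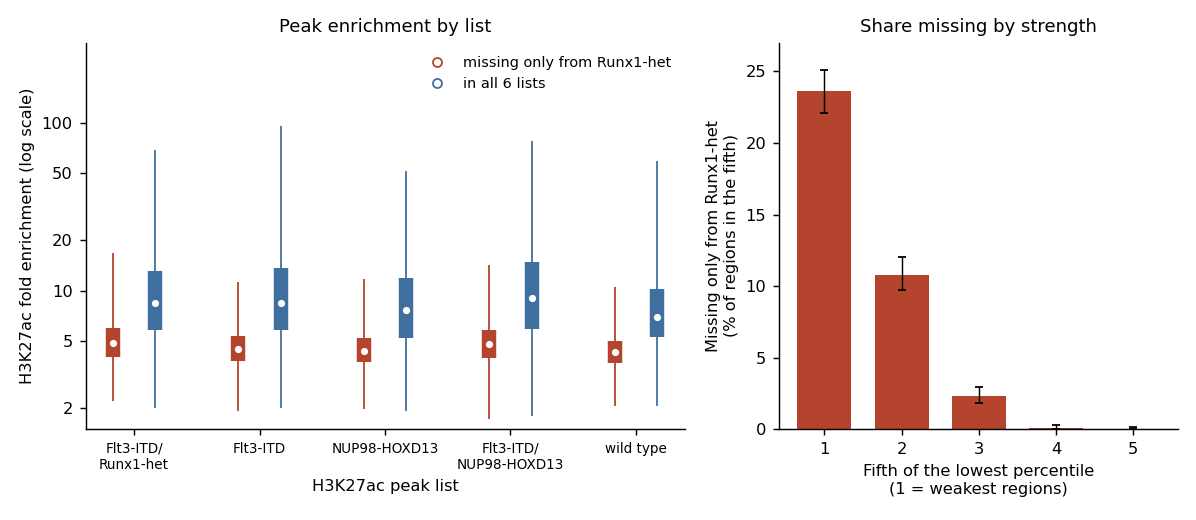
H3K27ac fold enrichment of the members and of the regions in all 6 lists, by peak list (left; log axis; thin line, lowest to highest; thick line, quartiles; circle, median), and the share of regions missing only from Runx1-het in 5 groups of regions ordered by their lowest within-list percentile (right; percent with 95% Wilson interval). Members had lower medians than the regions in all 6 lists in each list, and their share dropped to 0 in the strongest group.

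The weaker a region was in the other lists, the more often it was a member. Regions that the 5 other lists held were ordered by their lowest percentile among those lists and divided into 5 groups of nearly equal size. The weakest group had 691 members (23.6%, 22.1 to 25.1), the next 317 (10.8%, 9.73 to 12), the middle one 68 (2.34%, 1.85 to 2.95), the fourth 3 (0.103%) and the strongest 0. The median lowest percentile was 25.5 over the members, against 69.5 over the regions in all 6 lists. With the 6 lists shortened to equal length, 706 of the 1079 regions were still missing only from Runx1-het.

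The same count was made for each of the other lists in turn. Beside the 1079 regions missing only from Runx1-het (7.37%, 6.96 to 7.81), 319 were missing only from Flt3-ITD/Runx1-het (2.30%), 254 only from Flt3-ITD (1.84%), 488 only from NUP98-HOXD13 (3.48%) and 245 only from Flt3-ITD/NUP98-HOXD13 (1.78%). Wild type, whose list was the longest, was the sole list without a peak in 1111 regions (7.58%, 7.16 to 8.02). Runx1-het and wild type thus stood above the 4 genotypes with Flt3-ITD or NUP98-HOXD13, and their own intervals overlapped. With all 6 lists shortened to the 31518 strongest autosomal peaks by −log10 p, 707 regions were missing only from Runx1-het (5.30%, 4.93 to 5.69), 178 to 442 only from 1 of those 4 lists (1.39% to 3.38%), and 1337 only from wild type (9.57%, 9.09 to 10.1). At equal length the Runx1-het share stayed above those of the 4 lists and below that of wild type. Among stronger peaks the order differed. With a −log10 q of at least 5 in all lists, 208 regions were missing only from Runx1-het (2.25% of the 9260 that the 5 other lists held). The count was 281 for Flt3-ITD/Runx1-het, 69 for Flt3-ITD, 615 for NUP98-HOXD13, 70 for Flt3-ITD/NUP98-HOXD13 and 1415 for wild type. Under that limit the Runx1-het list was the longest, with 20831 autosomal peaks. NUP98-HOXD13 had 15191, wild type 16066 and the lists with Flt3-ITD 18545 to 20829. Whether the order followed from list length was not tested.

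**Figure D2:**
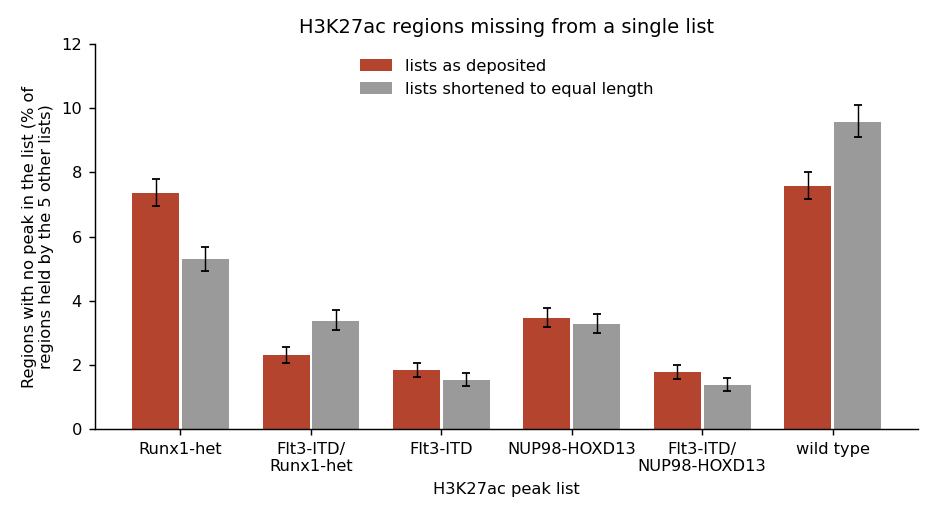
Share of regions with no peak in the named H3K27ac list among the regions that the 5 other lists held (percent with 95% Wilson interval), for the lists as deposited and for lists shortened to the same number of peaks. Runx1-het and wild type had the tallest bars in both.

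Many members lay close to H3K27ac that the Runx1-het list did hold, though this distance was not compared with that of other region sets. The distance to the nearest Runx1-het peak had a median of 8.47 kb, with 188 members (17.4%) within 1 kb, 579 (53.7%) within 10 kb and 945 (87.6%) within 50 kb. At the edge of the rule, the member nearest to Ggt5 lay 12 bp from a Runx1-het peak and that nearest to E130114P18Rik lay 18 bp from one. Just outside the rule, the region at the Mdm1 promoter was covered over 272 bp by a Runx1-het peak of fold enrichment 3.74, and that nearest to Chd7 over 274 bp by one of 3.59.

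By position, 359 members lay within 1 kb of a protein-coding start site and are called promoters here (33.3%, 30.5 to 36.1). Of the rest, 366 were intronic, 334 intergenic and 20 exonic. Among the regions in all 6 lists 52.0% were promoters (51.2 to 52.9), and among all merged regions 17.0% (16.7 to 17.3). The share of promoters was 5.96% in the regions missing only from Flt3-ITD/Runx1-het, 20.1% for Flt3-ITD, 7.38% for NUP98-HOXD13, 12.2% for Flt3-ITD/NUP98-HOXD13 and 42.7% for wild type (39.8 to 45.6). Members were thus less often promoters than the regions in all 6 lists and than the set missing only from wild type. They were more often promoters than all merged regions and than the 4 other sets. With a −log10 q of at least 5 in all lists, 54.8% of the 208 regions missing only from Runx1-het were promoters. Of the 1079 members, 85 remained among the regions called then. With that limit in the 5 other lists alone, 85 remained too. Counted the other way, 4.85% of the promoters that the 5 other lists held lacked a Runx1-het peak (4.38 to 5.36), against 9.97% of the regions away from promoters (9.30 to 10.7).

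The 359 promoter members belonged to 357 genes. For 56 of these genes a Runx1-het H3K27ac peak stood at another start site, and for 301 it stood at none. For 130 of them the Runx1-het H3K4me1 list had a peak within 1 kb of a start site. Within 50 kb of a start site lay 890 members, next to 828 genes, of which 772 had 1 member, 50 had 2 and 6 had 3.

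Of the 20 most enriched members, taken by the lowest percentile over the 5 other lists, 14 were promoters, 4 intronic and 2 intergenic. The promoter of Slc1a5, the glutamine transporter gene (chr7:16781196-16783464), had no Runx1-het peak and a fold enrichment of 7.80 in Flt3-ITD/Runx1-het, 7.29 in Flt3-ITD, 8.64 in NUP98-HOXD13, 10.3 in Flt3-ITD/NUP98-HOXD13 and 5.99 in wild type. The Noct promoter (chr3:51223860-51225711) had 8.75 in Flt3-ITD/Runx1-het, 8.51 in Flt3-ITD, 8.22 in NUP98-HOXD13, 8.98 in Flt3-ITD/NUP98-HOXD13 and 5.95 in wild type. At neither promoter did any list hold an H3K4me1 peak. The Stub1 promoter (chr17:25832213-25833777), of a ubiquitin ligase gene, reached 16.7 in Flt3-ITD/Runx1-het and 14.3 in Flt3-ITD/NUP98-HOXD13, with 9.37 in Flt3-ITD, 6.78 in NUP98-HOXD13 and 5.66 in wild type. Its highest values were in the double mutants and its lowest in wild type. The Nfkbia promoter (chr12:55490654-55493694) had 8.69 in Flt3-ITD/Runx1-het, 6.45 in Flt3-ITD, 11.8 in NUP98-HOXD13, 8.74 in Flt3-ITD/NUP98-HOXD13 and 5.33 in wild type, and a Runx1-het peak lay 0.938 kb away. The Gna11 promoter (chr10:81543532-81546225), of a G protein alpha subunit gene, differed in its order, with wild type highest at 10.6 against 6.38 to 8.35 in the others, and it carried H3K4me1 in all 6 lists. The strongest member of all, in an intron of Nudt3 (chr17:27591598-27593286), had 6.65 to 8.51 and an H3K4me1 peak in every list but wild type. Of the 20, 14 had no H3K4me1 peak in Runx1-het and 11 had none in wild type.

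H3K4me1, which the choice of members did not use, was less often present at them in the Runx1-het and wild-type lists than in the 4 others. A peak stood at 48.5% of members in Runx1-het (45.5 to 51.5), 72.3% in Flt3-ITD/Runx1-het, 67.0% in Flt3-ITD, 71.7% in NUP98-HOXD13, 70.3% in Flt3-ITD/NUP98-HOXD13 and 51.3% in wild type (48.3 to 54.2). These 2 lists were also the lowest over all merged regions, with 41.3% in Runx1-het and 39.7% in wild type against 47.7% to 52.0%. At the regions in all 6 H3K27ac lists they had 69.9% and 68.4%, against 78.7% to 81.7% in the 4 others. With H3K4me1 lists of equal length, the shares at members were 48.5% in Runx1-het, 60.4% in Flt3-ITD/Runx1-het, 60.3% in Flt3-ITD, 66.5% in NUP98-HOXD13, 64.2% in Flt3-ITD/NUP98-HOXD13 and 51.2% in wild type. The Runx1-het share remained the lowest, and its interval overlapped that of wild type. With H3K4me1 peaks of −log10 q of at least 5 alone, the share was 21.9% in Runx1-het, 27.7% to 28.6% in the 3 lists with Flt3-ITD, 13.5% in NUP98-HOXD13 and 24.8% in wild type, so Runx1-het was not the lowest. At the regions in all 6 H3K27ac lists, lists of equal length gave 69.9% in Runx1-het and 68.2% in wild type, against 68.1% to 75.7% in the others. The gap between the lists was therefore smaller there than at the members.

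The regions missing only from wild type showed a similar order. Their H3K4me1 share was 54.2% in Runx1-het, 65.0% to 68.9% in the 4 other mutant lists and 49.5% in wild type. In each of the 2 sets the lowest share was in the list without the H3K27ac peak, and the other list of the pair came next.

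**Figure D3:**
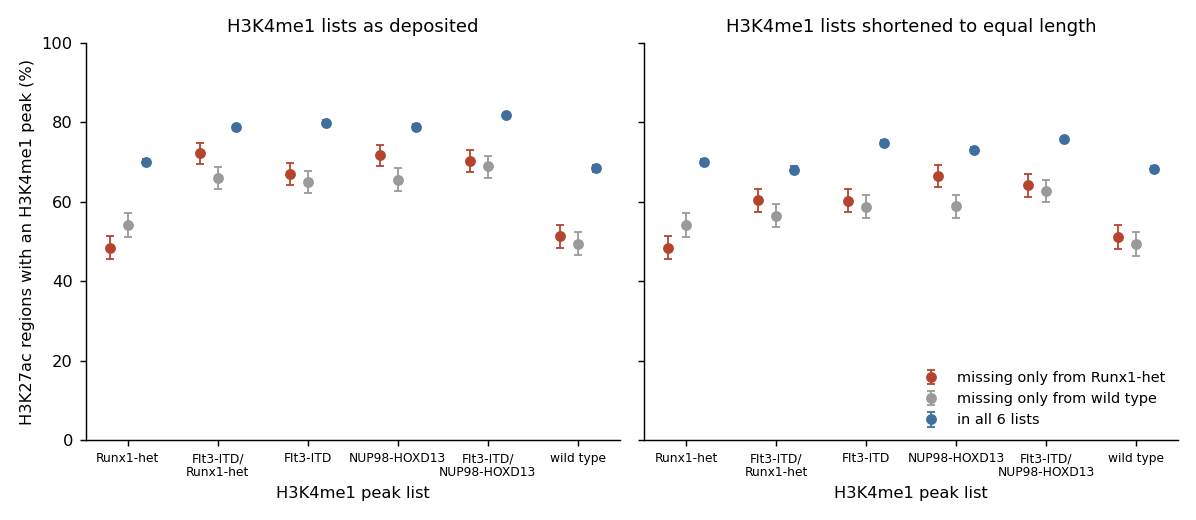
Share of H3K27ac regions with an H3K4me1 peak, by H3K4me1 list (percent with 95% Wilson interval), for the lists as deposited (left) and shortened to equal length (right). At the regions missing only from Runx1-het the points for Runx1-het and wild type lie below those of the 4 other lists.

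Away from promoters, 59.0% of members had an H3K4me1 peak in Runx1-het (55.4 to 62.6), against 82.2% to 84.3% in the 4 other mutant lists and 63.3% in wild type. At promoters the share was 27.3% in Runx1-het (22.9 to 32.1), against 36.5% to 48.2% in the 4 other mutant lists and 27% in wild type. With H3K4me1 lists of equal length, the promoter share was 27.3% in Runx1-het, against 31.5% (26.9 to 36.5) to 40.4% (35.4 to 45.5) in the 4 other mutant lists and 26.7% in wild type, so at promoters the Runx1-het interval overlapped those of Flt3-ITD, Flt3-ITD/Runx1-het and Flt3-ITD/NUP98-HOXD13. Away from promoters it was 59.0% in Runx1-het, against 74.2% to 79.6% in those 4 lists and 63.3% in wild type. At the regions in all 6 H3K27ac lists, the lists as deposited gave 81.3% in Runx1-het and 80.3% in wild type away from promoters. The 4 other lists gave 89.1% to 90.7% there. At promoters among those regions it was 59.5% in Runx1-het and 57.5% in wild type, against 67.9% to 73.5%. All 6 H3K4me1 lists had a peak at 321 members (29.7%), and none had one at 128 (11.9%). Over all merged regions these 2 shares were 20.1% and 26.8%, and at the regions in all 6 H3K27ac lists 50.6% and 6.19%. In the set missing only from wild type they were 31.8% and 14.3%, close to those of the members.

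A stricter reading asks where H3K4me1 was missing from Runx1-het alone, as H3K27ac was. Of 407 members with an H3K4me1 peak in the 5 other lists, 86 had none in Runx1-het (21.1%, 17.4 to 25.4). The share was 7.92% at the regions in all 6 H3K27ac lists (7.33 to 8.56) and 13% over all merged regions. The same count for wild type gave 79 of 400 members (19.8%, 16.1 to 23.9), against 10.0% at the regions in all 6 lists and 16.3% over all merged regions. Neither Runx1-het nor wild type was thus the single list in which H3K4me1 was often absent from the members. With H3K4me1 lists of equal length the share at members was 16.0% for Runx1-het (12.6 to 20.3), against 10.3% over all merged regions, and 14.3% for wild type (11.0 to 18.4), against 13.4% over all merged regions.

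Of those 86 members, 36 had no Runx1-het H3K27ac peak within 10 kb. Over all 1079 members, 579 (53.7%) had one within that distance, so the 86 are not set apart by it. The most enriched of the 86 was intergenic, 26.4 kb from the start of the trehalase gene Treh (chr9:44644452-44646863). Its H3K27ac fold enrichment was 6.55 in Flt3-ITD/Runx1-het, 9.42 in Flt3-ITD, 7.03 in NUP98-HOXD13, 7.60 in Flt3-ITD/NUP98-HOXD13 and 5.97 in wild type. Its H3K4me1 fold enrichment was 5.87 in Flt3-ITD/Runx1-het, 3.98 in Flt3-ITD, 5.57 in NUP98-HOXD13, 3.56 in Flt3-ITD/NUP98-HOXD13 and 4.76 in wild type, and the nearest Runx1-het H3K27ac peak was 37.8 kb away. Next came an intron of Prkag2, a regulatory subunit of the energy sensor AMPK (chr5:25041212-25043115), with H3K27ac of 4.74 to 7.14 and H3K4me1 of 3.80 to 5.87 in the 5 lists. The promoters of Ppm1f (chr16:16895034-16897854), Ndufb8 (chr19:44553522-44555560), Chsy1 (chr7:66108478-66111197) and the synaptic adhesion gene Nlgn2 (chr11:69833194-69835120) were also in this group. At Ppm1f the H3K27ac fold enrichment was 5.99 in Flt3-ITD/Runx1-het, 5.70 in Flt3-ITD, 5.89 in NUP98-HOXD13, 5.04 in Flt3-ITD/NUP98-HOXD13 and 7.10 in wild type, with H3K4me1 between 4.03 and 6.01.

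**Figure D4:**
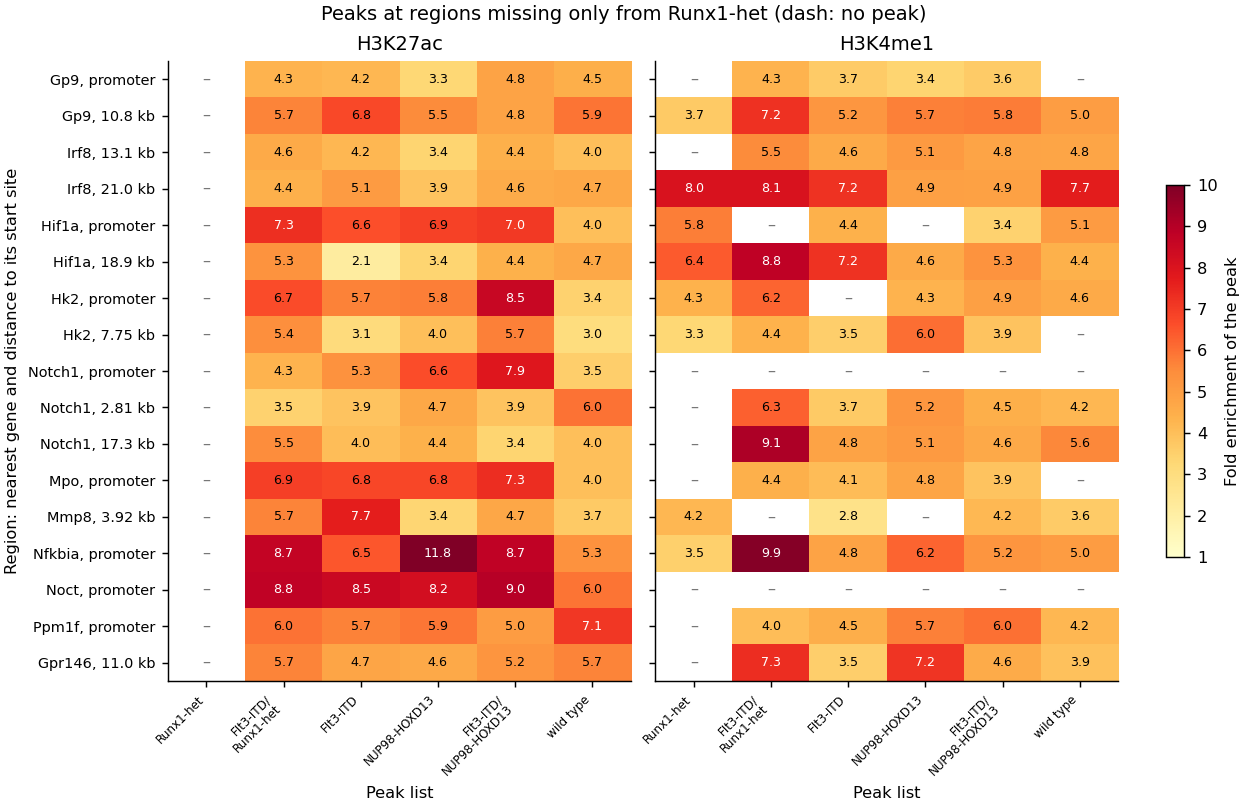
Fold enrichment of the H3K27ac peak (left) and of the H3K4me1 peak (right) in each of 6 peak lists at 17 members, named by the nearest gene and the distance to its start site; a dash means no peak. The H3K27ac column of Runx1-het is empty by the choice of members, and at Ppm1f, for example, the H3K4me1 peak is missing from Runx1-het and present in the 5 others.

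Platelet genes were among those with several members. Gp9, which encodes glycoprotein IX of the platelet receptor for von Willebrand factor, had both regions that the 5 other lists held among the members and no assigned region (one for which it had the nearest start site, within 50 kb) in the Runx1-het list. Its promoter region (chr6:87778245-87779272) had H3K27ac of 4.33 in Flt3-ITD/Runx1-het, 4.22 in Flt3-ITD, 3.27 in NUP98-HOXD13, 4.8 in Flt3-ITD/NUP98-HOXD13 and 4.47 in wild type. A second region 10.8 kb away (chr6:87788865-87791629), over an exon of the neighbouring gene Rab43, had 5.66 in Flt3-ITD/Runx1-het, 6.75 in Flt3-ITD, 5.51 in NUP98-HOXD13, 4.83 in Flt3-ITD/NUP98-HOXD13 and 5.93 in wild type. The second carried H3K4me1 in all 6 lists, including 3.68 in Runx1-het. An intronic region of Itgb3, the platelet integrin beta 3 gene (chr11:104613434-104614407), had H3K27ac of 3.62 to 4.62 in the 5 lists and H3K4me1 in each of them but not in Runx1-het. A region 19.4 kb from Fli1, an ETS factor gene of megakaryocytes (chr9:32562283-32563464), had 3.86 to 5.66 and lay 1.45 kb from a Runx1-het peak. Taken as a list, 7 of the 37 regions near 21 megakaryocyte and platelet genes that the 5 other lists held were members (18.9%, 9.48 to 34.2), against 7.37% of all such regions. Those of Gp9, Itgb3 and Fli1 were among them. With lists of equal length the count was 7 of 32 (21.9%), against 707 of 13339 (5.30%) over all such regions. That 5.30% is also the share to set beside the equal-length counts of the gene lists below. Over the 37 regions the median lowest percentile was 55.6, against 66.9 over all regions held by the 5 other lists, so the regions near this list were also weaker. At promoters, 9 of the 21 genes had an H3K27ac peak in Runx1-het, against 12 to 14 in the other lists. The choice of members fixed part of that difference, since 3 of the 7 members near this list lay at promoters. The promoter region of Gp9 was among these 3, and the Runx1-het list was also the shortest.

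Myeloid genes followed. Of the regions near granulocyte genes 4 of 11 were members (36.4%, 15.2 to 64.6; median lowest percentile 57.9), with lists of equal length 2 of 9. They lay near Cebpa and Gfi1 (transcription factors of the granulocyte lineage), Mpo (myeloperoxidase) and Mmp8 (neutrophil collagenase). The Mpo region (chr11:87794488-87796821), 0.279 kb from the start site, had 6.91 in Flt3-ITD/Runx1-het, 6.79 in Flt3-ITD, 6.78 in NUP98-HOXD13, 7.31 in Flt3-ITD/NUP98-HOXD13 and 4.01 in wild type. A Runx1-het peak lay 0.192 kb from it, so another part of the Mpo promoter carried H3K27ac in that list. Near Mmp8 (chr9:7553782-7554532) the values were 5.66 in Flt3-ITD/Runx1-het, 7.65 in Flt3-ITD, 3.35 in NUP98-HOXD13, 4.70 in Flt3-ITD/NUP98-HOXD13 and 3.68 in wild type, and the Runx1-het list held none of the regions assigned to Mmp8. The region near Cebpa had 3.37 to 4.39, and that near Gfi1, 0.185 kb from a Runx1-het peak, 3.46 to 5.65. At promoters, 5 of the 18 granulocyte genes had an H3K27ac peak in Runx1-het, 3 in wild type and 6 to 8 in the 4 other lists.

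Of the regions near monocyte and macrophage genes 4 of 19 were members (21.1%, 8.51 to 43.3; median lowest percentile 45.9), with lists of equal length 3 of 16. They lay near Spi1 (the ETS factor PU.1), Ctss (the protease cathepsin S) and Irf8 (a transcription factor of monocytes and dendritic cells). A Runx1-het H3K27ac peak lay 0.220 kb from the Spi1 region and 1.57 kb from the Ctss region. Irf8 had 2 of 2 regions among the members and no assigned region in the Runx1-het list, against 4 to 6 in the other lists. The first (chr8:120751769-120753202), 13.1 kb from the start site, had H3K27ac of 4.59 in Flt3-ITD/Runx1-het, 4.21 in Flt3-ITD, 3.37 in NUP98-HOXD13, 4.44 in Flt3-ITD/NUP98-HOXD13 and 4.01 in wild type, and H3K4me1 in those 5 lists but not in Runx1-het. The second (chr8:120714424-120715360), at 21.0 kb, had 3.86 to 5.07 and carried strong H3K4me1 in Runx1-het too, at 8.04, against 4.87 to 8.05 in the others. Both Irf8 regions had H3K27ac in the same lists by the choice of members, and they differed in H3K4me1. No list had an H3K27ac peak at the Irf8 promoter itself. Of the 17 monocyte and macrophage genes, 7 had a promoter H3K27ac peak in Runx1-het, against 6 to 9 in the other lists.

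Of the regions near stem cell and multipotent progenitor genes 7 of 44 were members (15.9%, 7.93 to 29.4). With lists of equal length the count was 5 of 41 (12.2%), against 5.30% over all such regions. The median lowest percentile of the 44 regions was 71.3, against 66.9 over all regions held by the 5 other lists. Among the 7 members were regions in introns of Erg and Mecom, both transcription factor genes of stem cells, and of Flt3. Runx1-het H3K27ac peaks lay 0.422 kb and 1.71 kb from the Erg regions. Such peaks lay 6.56 kb from the Mecom region and 0.519 kb from the Flt3 region. The Runx1-het list held 10 regions assigned to Erg, 20 to Mecom and 8 to Flt3. The Mecom region (chr3:30226037-30227573) had 3.70 in Flt3-ITD/Runx1-het, 4.21 in Flt3-ITD, 6.0 in NUP98-HOXD13, 5.09 in Flt3-ITD/NUP98-HOXD13 and 4.84 in wild type, with H3K4me1 in the 5 lists and not in Runx1-het. The regions of Erg (3.53 to 5.48 and 3.52 to 4.74 over the lists) both carried H3K4me1 in Runx1-het, at 6.43 and 5.45. The Flt3 region (3.35 to 4.24) was no longer a member with lists of equal length. Erg, Mecom and Flt3 had H3K27ac peaks at their promoters in all 6 lists. Of the 30 genes of this list, 20 had a promoter H3K27ac peak in Runx1-het, against 23 to 24 in the other lists. The choice of members fixed part of that difference, since 2 of the 7 members lay at promoters.

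Of the regions near RUNX family genes and genes reported as RUNX1 targets, 11 of 92 were members (12%, 6.81 to 20.2; median lowest percentile 58.9), with lists of equal length 7 of 76. In the set missing only from wild type 12 regions lay near this list. Beside those near Mpo, Cebpa, Gfi1 and Spi1, members lay near Runx1, Runx3 and Cbfa2t3, whose product is a corepressor that binds RUNX complexes. The intronic Runx1 region, 21.6 kb from a start site (chr16:92718960-92720117), had weak peaks of 3.33 in Flt3-ITD/Runx1-het, 3.74 in Flt3-ITD, 3.03 in NUP98-HOXD13, 3.76 in Flt3-ITD/NUP98-HOXD13 and 4.28 in wild type. A region 73.2 kb from a Runx1 start site had 2.13 to 6.85, and neither was a member with lists of equal length. The heptad of stem cell transcription factors, which includes Erg, Fli1 and Runx1, had 4 of 31 (12.9%, 5.13 to 28.9).

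**Figure D5:**
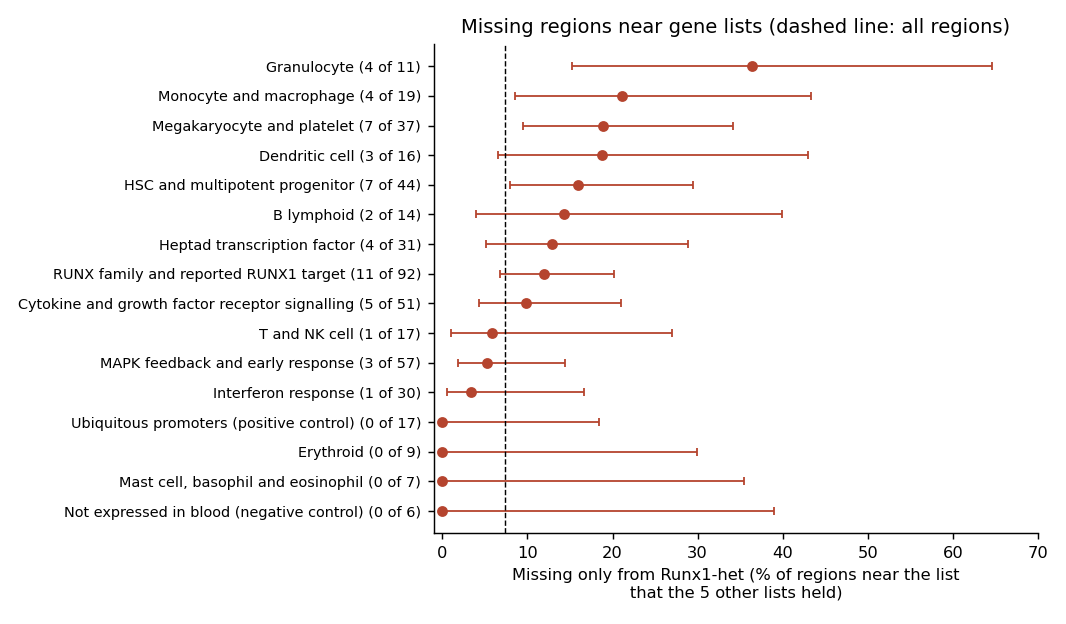
Share of regions missing only from Runx1-het among the regions that the 5 other lists held near each of 16 gene lists (percent with 95% Wilson interval; counts beside the names; dashed line at 7.37%, the share over all regions). The interval lies above the line for granulocyte, monocyte, megakaryocyte and stem cell genes, each on 11 to 44 regions.

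The lists overlap, since Irf8, Erg, Fli1, Cebpa, Gfi1, Mpo and Spi1, among others, stand on more than 1, and the regions of 1 gene are not independent. Only 36 members lay near any listed gene. Dendritic cell genes had 3 of 16 (18.8%), B lymphoid genes 2 of 14 (14.3%) and cytokine and growth factor receptor signalling genes 5 of 51 (9.80%). T and NK cell genes had 1 of 17 (5.88%), MAPK feedback and early response genes 3 of 57 (5.26%) and interferon response genes 1 of 30 (3.33%), that of Mx1. Erythroid genes had 0 of 9, mast cell, basophil and eosinophil genes 0 of 7, genes not expressed in blood 0 of 6 and ubiquitous genes 0 of 17, where the upper bounds were 29.9%, 35.4%, 39.0% and 18.4%. Of the 12 ubiquitous promoters 10 had a peak in each list, Runx1-het included, and of 18 promoters not expressed in blood 1 had.

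The strongest member near a signalling gene lay 49.9 kb from Myc, the growth regulator (chr15:62037315-62039021), with 5.84 in Flt3-ITD/Runx1-het, 5.42 in Flt3-ITD, 6.90 in NUP98-HOXD13, 9.65 in Flt3-ITD/NUP98-HOXD13 and 6.32 in wild type. It remained a member with lists of equal length and with a −log10 q of at least 5. An intronic region of Irs1, the insulin receptor substrate gene (chr1:82282194-82284187), had 6.38 in Flt3-ITD/Runx1-het, 5.25 in Flt3-ITD, 5.39 in NUP98-HOXD13, 10.3 in Flt3-ITD/NUP98-HOXD13 and 9.28 in wild type, and no list had H3K4me1 there. Regions near the cytokine signalling genes Socs1 and Stat5a lay 0.340 kb and 1.36 kb from a Runx1-het peak.

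Hif1a, Hk2 and Notch1, singled out after their values were seen, were among the genes with several members. Hif1a had both regions that the 5 other lists held among the members and no assigned region in the Runx1-het list. Its promoter region (chr12:73907650-73909264) had 7.27 in Flt3-ITD/Runx1-het, 6.62 in Flt3-ITD, 6.90 in NUP98-HOXD13, 7.05 in Flt3-ITD/NUP98-HOXD13 and 4.01 in wild type, 54.9 kb from the nearest Runx1-het peak, and the region held H3K4me1 in Runx1-het at 5.76. The second Hif1a region, at 18.9 kb, was weak, with a lowest percentile of 0.307, and was not a member with lists of equal length. At the promoter of Hk2, the hexokinase gene (chr6:82771888-82774914), H3K27ac was 6.69 in Flt3-ITD/Runx1-het, 5.70 in Flt3-ITD, 5.75 in NUP98-HOXD13, 8.53 in Flt3-ITD/NUP98-HOXD13 and 3.43 in wild type, and H3K4me1 was 4.35 in Runx1-het. Wild type had the lowest H3K27ac at both, and the Hk2 region was not a member with lists of equal length. Notch1, a receptor of lymphoid fate decisions, had 3 of 7 regions among the members. Its promoter region (chr2:26502435-26503897) had 4.31 in Flt3-ITD/Runx1-het, 5.33 in Flt3-ITD, 6.63 in NUP98-HOXD13, 7.87 in Flt3-ITD/NUP98-HOXD13 and 3.55 in wild type and, like that of Hk2, was not a member with lists of equal length. The other Notch1 regions, at 2.81 kb and 17.3 kb, carried H3K4me1 in the 5 other lists and not in Runx1-het.

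Promoter sequences of the members were compared with other promoters for short motifs. The RefSeq table held 296 windows of 300 bases (250 before and 50 after the start site, both strands searched) that overlapped a member, from 257 genes, and none of the motifs named here contains another. The RUNX core TGTGGT stood in 11.8% of them (8.63 to 16.0), against 11.7% in the set missing only from wild type, 12% in the regions in all 6 lists and 14.6% of all 19174 windows. TGTGGT or the variant TGCGGT stood in 20.6% (16.4 to 25.6), against 21.5% in the regions in all 6 lists and 21.5% of all windows. Promoter members thus held RUNX letters about as often as other promoters. The ETS core GGAAGT stood in 21.3% (17.0 to 26.3), against 34.7% in the set missing only from wild type (30.4 to 39.4), 32.8% in the regions in all 6 lists (31.7 to 33.9) and 25.3% of all windows. The GATA core AGATAA stood in 4.39% (2.58 to 7.37), against 3.99% in the set missing only from wild type, 5.45% in the regions in all 6 lists and 9.30% of all windows. Median GC content was 61.3%, against 61.3% in the set missing only from wild type, 61.7% in the regions in all 6 lists and 57.3% over all windows. A match is a run of letters, and sequences away from promoters were not analysed here.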

How the data were processed

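Groups came from the sample labels. The submitters' processing notes name BWA for alignment, MACS2 for peak calling and the build mm10 (GRCm38), and their versions are not given. Each of the 12 deposited lists, 6 per mark, gives for every peak a score, a ratio (the authors' fold enrichment), a −log10 p, a −log10 q and the summit offset, per the deposited columns. The input sample was not used here.

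Peaks were merged with Python 3.11.15, pandas 2.3.3 and numpy 2.4.6. Promoters were regions within 1 kb of the 54368 start sites of 21951 protein-coding genes (GENCODE release M21), and regions went to the nearest start site within 50 kb. Of 500 regions deleted from 1 list in simulated data, 490 were recovered, and 10 had merged with a neighbouring peak. No genome sequence was given, so the planned motif windows around summits were replaced by RefSeq promoter windows.

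The members and the 16 gene lists (326 of 327 entries annotated) were chosen with earlier results of these data known. Regions named in the text are the 20 strongest members by lowest percentile, up to 6 per gene list, genes with at least 2 members, the 10 strongest with H3K4me1 missing only from Runx1-het, and those of Runx1, Vav1 and Flt3. Regions printed were picked from these 171 after their values were seen, and some are not reported here. Alternatives were lists of equal length, stricter q values, a 1 kb gap, coverage of at least 0.5, merging over 500 bp, chromosome X, and wider promoter and gene windows.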

Additional observations from a re-analysis of the deposited data

How the results depend on the processing

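No paired analysis was possible because each genotype gave 1 pooled list per mark, and leaving out replicates was not run. Motif windows of 500 bases were not run.

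The number of regions missing only from Runx1-het was 707 with H3K27ac lists of equal length, when 706 of the 1079 members remained. It was 208 with a −log10 q of at least 5 in all lists, a limit that shortens the Runx1-het list too. It was 85 with that limit in the 5 other lists alone, and under either limit 85 of the 1079 members remained. With coverage of at least 0.5 it was 120. With q of at least 5 in all lists, 69 regions were missing only from Flt3-ITD and 70 only from Flt3-ITD/NUP98-HOXD13. With that limit in the 5 other lists the counts were 30 (Flt3-ITD/Runx1-het), 14 (Flt3-ITD), 50 (NUP98-HOXD13), 5 (Flt3-ITD/NUP98-HOXD13) and 282 (wild type), and with coverage of at least 0.5 they were 48, 28, 50, 20 and 294.

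The promoter share was 54.8% and 52.9% with q of at least 5 in all and in the 5 other lists, and 24.2% with coverage of at least 0.5. H3K4me1 in Runx1-het stood at 40.4% of the 208 regions and 38.8% of the 85 called under those limits on q, and in wild type at 47.1% of the 85. It was 21.9% in Runx1-het and 24.8% in wild type with H3K4me1 q of at least 5, where NUP98-HOXD13 was lowest at 13.5%, and 57.8% and 60.8% with H3K4me1 peaks within 500 bp. The share with a RUNX core was 11.1% of 36 windows with q of at least 5 in the 5 other lists.

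Members near any gene list numbered 6, 4 and 4 with q of at least 5 in all lists, in the 5 other lists, and with coverage of at least 0.5. In that order they were 1, 1 and 1 for stem cell, 2, 1 and 3 for RUNX, 2, 2 and 1 for megakaryocyte, 0, 0 and 1 for granulocyte, and 0, 0 and 1 for monocyte genes. RUNX genes had 7 with lists of equal length, 7 with no Runx1-het peak within 1 kb and 5 with peaks merged over 500 bp. Granulocyte genes had 2 under each of those 3, and stem cell genes 4 with merging and 11 within 100 kb. Over all regions held by the 5 other lists, 208 of 9260 (2.25%) were called with q of at least 5 in all lists, when megakaryocyte genes had 2 of 22 (9.09%), RUNX genes 2 of 51 (3.92%), stem cell genes 1 of 34 (2.94%), granulocyte genes 0 of 5 and monocyte genes 0 of 8. With that limit in the 5 other lists, 85 of 9249 (0.919%) were called. Megakaryocyte genes then had 2 of 21 (9.52%), RUNX genes 1 of 52 (1.92%), stem cell genes 1 of 34 (2.94%), granulocyte genes 0 of 5 and monocyte genes 0 of 8. Totals of held regions were not computed for coverage of at least 0.5. The causes were not tested. Adding chromosome X changed none of these calls.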

Other observations

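Among the other genes with several members, Foxp1 and Itgb2 had members close to Runx1-het peaks. Accsl, Rgs12 and Slc2a9 had both of their held regions among the members and no assigned region in the Runx1-het list. Foxp1, a transcription factor gene of B cell development, had 3 of 16 regions among the members and 39 regions in the Runx1-het list. The Foxp1 promoter member (chr6:99247808-99249534) had an H3K27ac fold enrichment of 4.59 in Flt3-ITD/Runx1-het, 5.59 in Flt3-ITD, 4.88 in NUP98-HOXD13, 5.22 in Flt3-ITD/NUP98-HOXD13 and 4.67 in wild type, 2.49 kb from a Runx1-het peak. Itgb2, the leukocyte integrin beta 2 gene, had 2 of 3, and a Runx1-het peak lay 0.0710 kb from its promoter member (3.55 to 5.07). Over chromosomes 1 to 19 the share of members among regions held by the 5 other lists ranged between 5.20% on chromosome 3 and 9.70% on chromosome 15.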
